A study of Mus musculus with 40 samples.

Results

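RNA that came down with HA-tagged ribosomes was compared with the RNA of the starting lysate in wild-type (WT) mice of the SAPAP3 cohort. The members are 8 of the 40 libraries of the series, 4 from the immunoprecipitation (IP) and 4 from the input, and they were taken by the animal id in their labels so that each mouse gives a pair. All 4 mice are labelled C57/BL6J and WT. According to the study's methods, a RiboTag adeno-associated virus (AAV), which carries *Rpl22* with an HA tag, was injected into the dorsal striatum, in SAPAP3 KO mice at an older age than in the C57/BL6NTac cohorts, and input RNA was a small share of the cleared lysate. The methods name an astrocyte virus (GfaABC1D promoter) and a neuron virus (hSYN1 promoter) but not the one used in this cohort, and the labels name no virus for it, so the cell type of the IP is described here by what it was enriched in. The sex and the age at collection are not given in the labels, and the id of mouse 3 joins 2 numbers without saying whether animals were pooled.

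Libraries of 3 further sets, each with 4 IP and 4 input libraries, serve for comparison. SAPAP3 KO mice (C57/BL6J-Dlgap3 KO in the labels) belong to the same cohort and lack the postsynaptic scaffold protein SAPAP3, the product of *Dlgap3*. The Control cohort (C57/BL6NTac) pairs IP and input by animal, and its labels name no virus. The hSyn cohort (C57/BL6NTac) is labelled as RiboTag with the hSYN1 promoter, and its IP and input carry different animal numbers.

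In RiboTag, only cells that express the tagged ribosomal protein give tagged ribosomes, so RNA in translation in those cells is enriched in the IP, and RNA of other cells is depleted. Astrocytes of the striatum clear glutamate and potassium, are coupled by gap junctions and supply lipids and serine to neurons. After injury, infection or viral injection they can turn reactive, with more *Gfap* and *Vim*, which encode filament proteins, and with secreted proteins such as lipocalin 2 (*Lcn2*) and the protease inhibitor TIMP1 (*Timp1*).

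The total count was 23438112 to 31866625 per input library and 40367540 to 47699278 per IP library. Levels are given as CPM, counts brought to a common library size, after TMM scaling over the 8 libraries, and each mouse's own input served as its control. Fold changes come from a paired fit, in which the mouse is a block, and were tested with edgeR's quasi-likelihood method and Benjamini-Hochberg adjustment. A gene was called where the adjusted p was under 0.05 and the log2(FC) lay outside -1 to 1. In bulk RNA of this kind, fewer cells of a type and less RNA per cell cannot be told apart. For genes with near-identical copies (ribosomal protein genes, *C4b*, *H2-K1*, *H2-D1*, *Ifit3* and *Ly6c2* among those named), the counting rule for shared reads is not given in the sources used here, and their counts are uncertain.

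The IP was enriched in astrocyte genes and in genes of reactive astrocytes. *Gfap*, *Lcn2* and *Timp1* were 8.54-fold, 10.5-fold and 10.5-fold higher in the IP than in the input, and the glutamate transporter gene *Slc1a2* was 3.98-fold higher. Genes of striatal interneurons (median log2(FC) 1.60) and of ependyma and choroid plexus (1.97) were mostly higher as well. Genes of microglia, endothelium and lymphocytes, and nuclear noncoding RNAs, were lower in the IP. Among 15587 genes tested, 3627 were called (23.3%), of which 1711 were higher (11.0% of those tested) and 1916 lower (12.3%). When the libraries were scaled to their total counts, 1413 were higher and 2459 lower, and the median log2(FC) of all genes was -0.20 in place of -0.03. Of the called genes, 3585 (98.8%) moved the same way in all 4 mice. They were called on these same mice, which makes such agreement likely. IP and input libraries did not overlap for 61.2% of all genes tested and 92.3% of those called, so a lack of overlap was common.

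**Figure D1:**
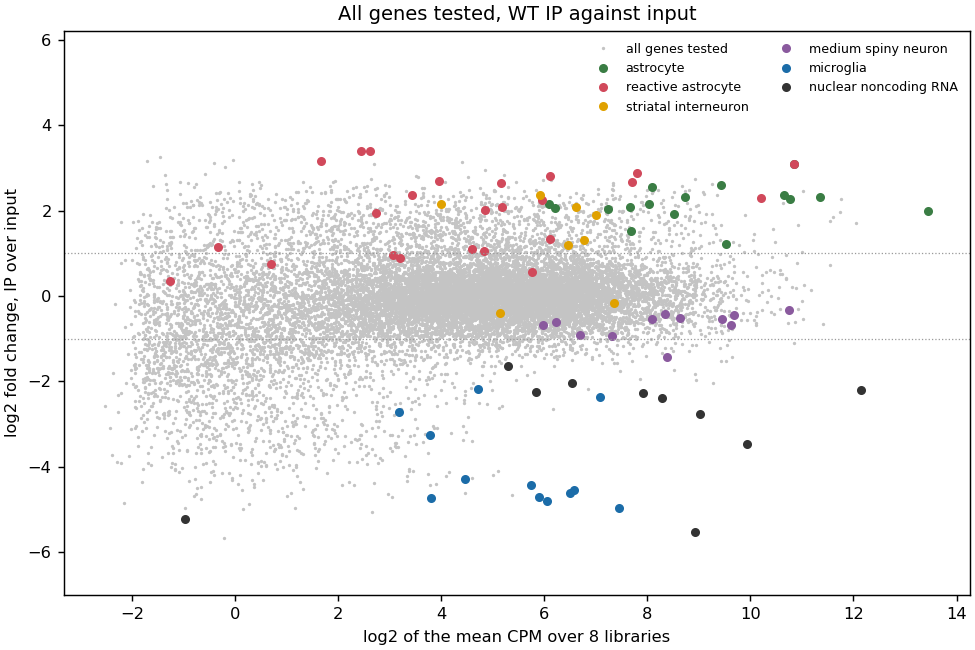
Each grey point is a gene tested in WT IP against input, with the log2 of its mean CPM over the 8 libraries on the horizontal axis and its log2(FC) of IP over input on the vertical axis, and coloured points are members of 6 gene lists (*Gfap* is in both astrocyte lists and is drawn in the colour of the second). Astrocyte genes lie above the dotted line at 1, all 12 microglial genes and 10 nuclear noncoding RNAs lie below the line at -1, and medium spiny neuron genes lie below 0.

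*Gfap*, the intermediate filament gene of astrocytes (GRCm38 chr11:102887336-102897200, minus strand), had 459.1, 439.7, 230.3 and 421.3 CPM in the inputs of mice 1 to 4. In the IPs it had 2739.9, 3669.8, 2395.2 and 4311.4 CPM. The groups did not overlap, and the log2(FC) was 3.09 (SE 0.14, edgeR adjusted p = 2.8e-07).

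*Slc1a2*, the main glutamate transporter of astrocytes (chr2:102658239-102790784, plus strand), was, per length of exons, the most abundant of the 4 genes in the IP, at 1351.9 FPKM. It had 3659.1, 4787.5, 5134.8 and 4391.9 CPM in the inputs and 14519.7, 18173.3, 22607.3 and 16554.0 CPM in the IPs. Every IP was above every input, with a log2(FC) of 1.99 (SE 0.10, edgeR adjusted p = 4.0e-07).

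*Lcn2* (chr2:32384637-32387739, minus strand) was scarce in the inputs, at 0.639, 2.71, 0.358 and 0.753 CPM. The IPs had 5.61, 22.9, 4.39 and 11.9 CPM. Mouse 2 was the highest in both fractions, and no IP overlapped an input (log2(FC) 3.40, SE 0.17, edgeR adjusted p = 4.4e-07).

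*Timp1* (chrX:20870166-20874737, plus strand) showed the same order of size, with 1.24, 1.47, 0.329 and 0.848 CPM in the inputs. Its IP levels were 7.67, 16.2, 6.47 and 9.44 CPM. The groups were apart, mouse 2 was again highest and mouse 3 lowest in both fractions, and the log2(FC) was 3.39 (SE 0.21, edgeR adjusted p = 1.2e-06).

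**Figure D2:**
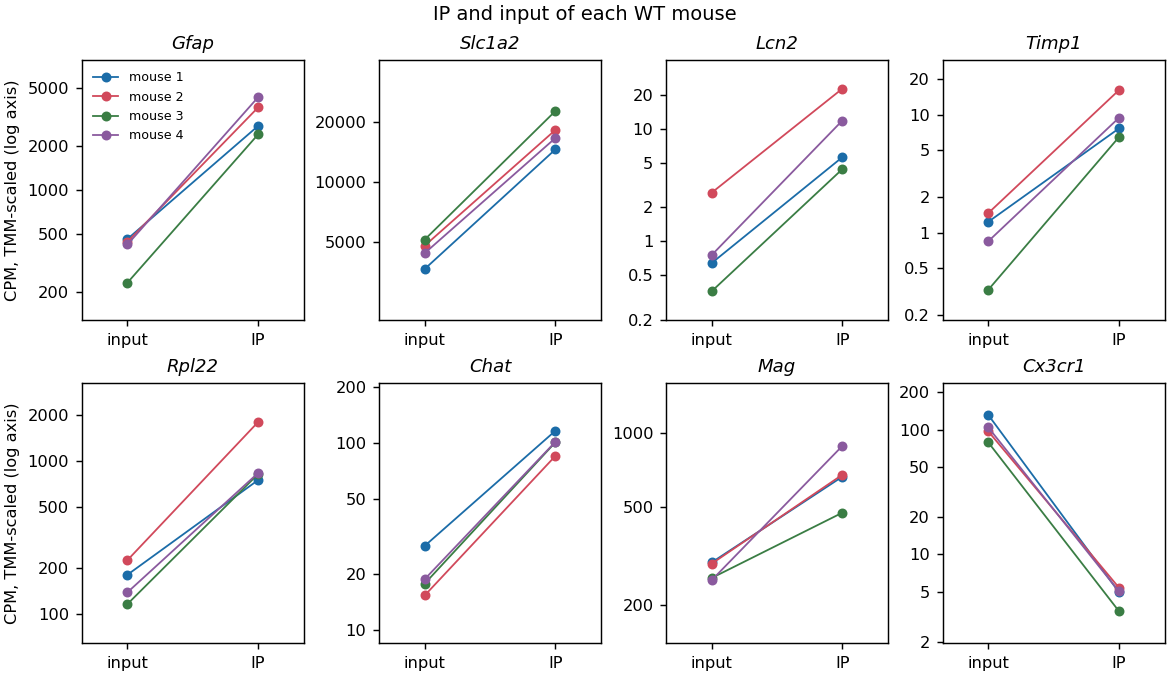
CPM (log axis) of 8 genes in the input and the IP of each WT mouse, with a line joining the libraries of the same mouse. *Gfap*, *Slc1a2*, *Lcn2*, *Timp1*, *Rpl22*, *Chat* and *Mag* rose from input to IP in 4 of 4 mice, while *Cx3cr1* fell from between 79.0 and 131.1 CPM to between 3.51 and 5.42 CPM.

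The promoter windows of these 4 genes are shown because the genes rose together in the IP. Each is the 250 bases before the RefSeq start (GRCm38.p6), written 5′ to 3′ on the strand of the gene, at chr11:102897201-102897450 for *Gfap*, chr2:32387740-32387989 for *Lcn2*, chrX:20869916-20870165 for *Timp1* and chr2:102706188-102706437 for *Slc1a2*, where the start of that transcript lies inside the annotated span of the gene. Capitals mark matches on either strand to 4 short motifs, TTCNNNGAA (STAT), TGANTCA (AP-1), TTGGCA (NFI) and AACAAT (SOX), with overlaps allowed.
Gfap: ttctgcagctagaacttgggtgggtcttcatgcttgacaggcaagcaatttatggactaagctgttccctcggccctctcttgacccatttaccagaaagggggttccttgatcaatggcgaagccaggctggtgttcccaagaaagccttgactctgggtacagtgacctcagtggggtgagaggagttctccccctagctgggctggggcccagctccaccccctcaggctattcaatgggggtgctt
Lcn2: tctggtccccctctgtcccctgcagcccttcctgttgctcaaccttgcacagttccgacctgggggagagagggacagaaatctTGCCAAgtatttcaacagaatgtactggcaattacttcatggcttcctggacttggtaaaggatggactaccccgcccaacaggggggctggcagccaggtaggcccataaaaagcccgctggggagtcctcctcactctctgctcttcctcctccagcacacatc
Timp1: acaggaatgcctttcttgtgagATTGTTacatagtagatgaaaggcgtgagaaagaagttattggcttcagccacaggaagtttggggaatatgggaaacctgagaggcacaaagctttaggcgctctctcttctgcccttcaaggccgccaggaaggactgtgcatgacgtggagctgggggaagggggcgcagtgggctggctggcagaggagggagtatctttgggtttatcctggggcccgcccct
Slc1a2: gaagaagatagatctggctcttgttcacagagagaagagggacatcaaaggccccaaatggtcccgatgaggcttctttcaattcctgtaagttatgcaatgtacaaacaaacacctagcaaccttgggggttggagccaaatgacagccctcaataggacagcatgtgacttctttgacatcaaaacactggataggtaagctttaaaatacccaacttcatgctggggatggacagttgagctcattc

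The *Lcn2* window held 1 match to the NFI motif and the *Timp1* window 1 match to the SOX motif, and the other windows held none. Over 32851 promoter windows of the same length, 7.0% held the STAT motif, 6.7% the AP-1 motif, 12.3% the NFI motif and 9.4% the SOX motif. A match is a run of letters and was not tested as a binding site.

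The astrocyte list as a whole was enriched. All 16 astrocyte genes were called higher in the IP, against 11.0% of all genes tested, with a median log2(FC) of 2.15 beside -0.03 for all genes, and the IP and input libraries did not overlap for any of the 16, as for 61.2% of all genes tested. The lowest was *Slc4a4*, a sodium bicarbonate cotransporter gene, at 1.21, and the highest was *Gfap*. The water channel gene *Aqp4* rose from 194.7 CPM to 1182.6 CPM on average (log2(FC) 2.60), *Aldh1l1*, which encodes a folate enzyme used as an astrocyte marker, from 78.1 to 462.7 CPM (2.56), and the glutamate transporter gene *Slc1a3* from 519.4 to 2714.1 CPM (2.37). Per length of exons, *Slc1a2* had the highest mean IP level of the list, followed by the aldolase gene *Aldoc* at 1001.2 FPKM and *Gfap* at 802.5 FPKM. The summed level of the 16 genes was 7409.7 to 8817.2 CPM in the inputs and 30209.7 to 41701.3 CPM in the IPs.

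Of 24 genes of reactive astrocytes tested, 19 were called higher, against 11.0% of all genes tested, and none lower, with a median of 2.17. The inhibitor gene *Serpina3n* had 68.2, 72.1, 25.7 and 53.5 CPM in the inputs and 355.6, 528.0, 234.8 and 446.1 CPM in the IPs, so that each IP was above each input (log2(FC) 2.87). The filament gene *Vim* rose from 66.1, 67.1, 31.8 and 65.7 CPM to 287.8, 431.7, 250.1 and 472.5 CPM (2.66), and the complement gene *C4b* from 573.3, 494.2, 189.4 and 407.0 CPM to 1959.6, 2020.6, 1360.8 and 2405.3 CPM (2.30). Mouse 3 was the lowest for these 3 genes in both fractions. The oncostatin M receptor gene *Osmr* (2.64), the long pentraxin gene *Ptx3* (3.15) and the complement inhibitor gene *Serping1* (2.80) also rose. The genes that did not pass were *Clcf1* (0.35), *Synm* (0.56), *Hspb1* (0.74), *Tm4sf1* (0.88) and *Nes* (0.97). *Steap4* (1.15) lost its call without mouse 2 (0.86, adjusted p = 0.11) and without mouse 4 (1.05, adjusted p = 0.057) in the same edgeR test, and also without the block (1.21, adjusted p = 0.054). *Cp* (1.06) and *S100a10* (1.10) were below the limit without mouse 2 (0.93 for each), and *Cp* also without mouse 4 (0.95). Under scaling to total counts, *Cp* (0.89), *Steap4* (0.98) and *S100a10* (0.93) were not called, which left 16 of 24.

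The 10 genes with the largest rise among those with at least 5 CPM in the IP were *Lcn2*, *Timp1*, *Ptx3*, *Tgm1*, *Gfap*, *Cox6b2*, *A2m*, *Serpina3n*, *Dcxr* and *Serping1*. *Tgm1*, which encodes a transglutaminase, rose from 4.33 to 37.7 CPM on average (log2(FC) 3.14), and *A2m*, which encodes the protease inhibitor alpha-2-macroglobulin, from 6.48 to 50.9 CPM (2.96). *Cox6b2*, a cytochrome c oxidase subunit gene best known from testis, rose from 1.37 to 11.5 CPM (3.08). *Dcxr*, which encodes a xylulose reductase, rose from 9.13 to 64.7 CPM (2.83).

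Genes of interferon signalling were higher in the IP, and their level followed the mouse. Of 12 tested, 11 were called higher, against 11.0% of all genes tested, with a median log2(FC) of 1.82. *Irf7*, an interferon regulatory factor gene, was at 0.46. *Ifit3*, an antiviral gene, had 159.7, 160.5, 54.8 and 109.6 CPM in the inputs and 668.6, 988.7, 420.5 and 703.4 CPM in the IPs (2.58). Mouse 3 was lowest in both fractions. The summed level of the list was 737.5 CPM in the input of mouse 3 and 2045.4 to 2189.0 CPM in the other inputs, and 3089.8 CPM against 5367.8 to 7294.0 CPM in the IPs. Scaled to total counts, *Ifit3* was at 57.6 to 170.7 CPM in these inputs, and at 4.12 to 15.0 CPM in the bulk libraries of WT mice, which are labelled C57/BL6NTac. The bulk libraries differ in strain and preparation, and this difference was not tested.

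Genes for the known tasks of astrocytes were mostly higher in the IP, against 11.0% of all genes tested. In the list for glutamate and GABA handling, 7 of 10 genes were higher and 1 was lower, with a median of 1.52. The glutamine synthetase gene *Glul* rose to 4594.0 CPM (log2(FC) 1.76) and the GABA transporter gene *Slc6a11* to 428.1 CPM (2.15). The amino acid transporter gene *Slc38a5* fell by 3.45 on the log2 scale, from a low 1.84 CPM.

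For potassium and water handling, 9 of 10 genes were higher (median 2.00), among them the potassium channel gene *Kcnj10* (1.92), the sodium pump subunit gene *Atp1b2* (2.08) and *Mlc1* (2.45), a membrane protein gene of astrocyte end feet. Only *Dtna* (0.83), a dystrobrevin gene, was not called. Of 6 gap junction genes, the astrocyte connexin genes *Gja1* (2.31), *Gjb6* (2.06) and *Gjb2* (1.97) rose, and *Gjd2* (0.55), the neuronal connexin gene, and *Gjc3* (0.03), of oligodendrocytes, were not called.

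Secreted regulators of synapses were higher in 10 of 11 cases (median 1.88), and in 9 of 11 under scaling to total counts. *Sparcl1*, which encodes hevin, rose from 1394.1 to 5416.6 CPM (1.96), the thrombospondin gene *Thbs4* from 9.70 to 56.1 CPM (2.46) and *Chrdl1* from 12.9 to 60.0 CPM (2.21), while *Thbs1* was at -0.71 without a call. Of the lists for metabolism, 11 of 13 genes of glucose and fatty acid use were higher (median 1.40), led by the acyl-CoA synthetase gene *Acsbg1* (2.49), and 6 of 9 genes of serine and glycine (median 1.50), led by *Gldc* (2.17), of the glycine cleavage system. In the cholesterol and lipoprotein list, 9 of 13 were higher (median 1.06), and 5 of 13 under scaling to total counts. *Clu* (2.45) and *Apoe* (2.28), which encode lipoproteins, were above the squalene epoxidase gene *Sqle* (1.01). *Sqle* and the lactate dehydrogenase gene *Ldhb* (1.01) were called just above the limit and were not called under scaling to total counts (0.84 for each).

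Of 16 transcription factor genes, 10 were higher (median 1.11), and 7 under scaling to total counts. *Tfcp2l1* (2.31), *Sox9* (2.16) and *Id3* (1.99) came first, and *Nfib* (0.65) and *Nfix* (0.65) were not called. Of 13 receptor genes, 5 were higher (median 0.66), namely the endothelin receptor gene *Ednrb* (2.41), *Fgfr3* (2.19), *S1pr1* (2.18), *Adora2b* (2.14) and *Fgfr2* (1.18). Of 6 phagocytic receptor genes, 4 rose (3 under scaling to total counts), led by *Megf10* (1.75). Among linkers of the actin cytoskeleton, the ezrin gene *Ezr* (2.17) and the radixin gene *Rdx* (1.11, but 0.94 under scaling to total counts) rose and *Dlgap3* fell.

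**Figure D3:**
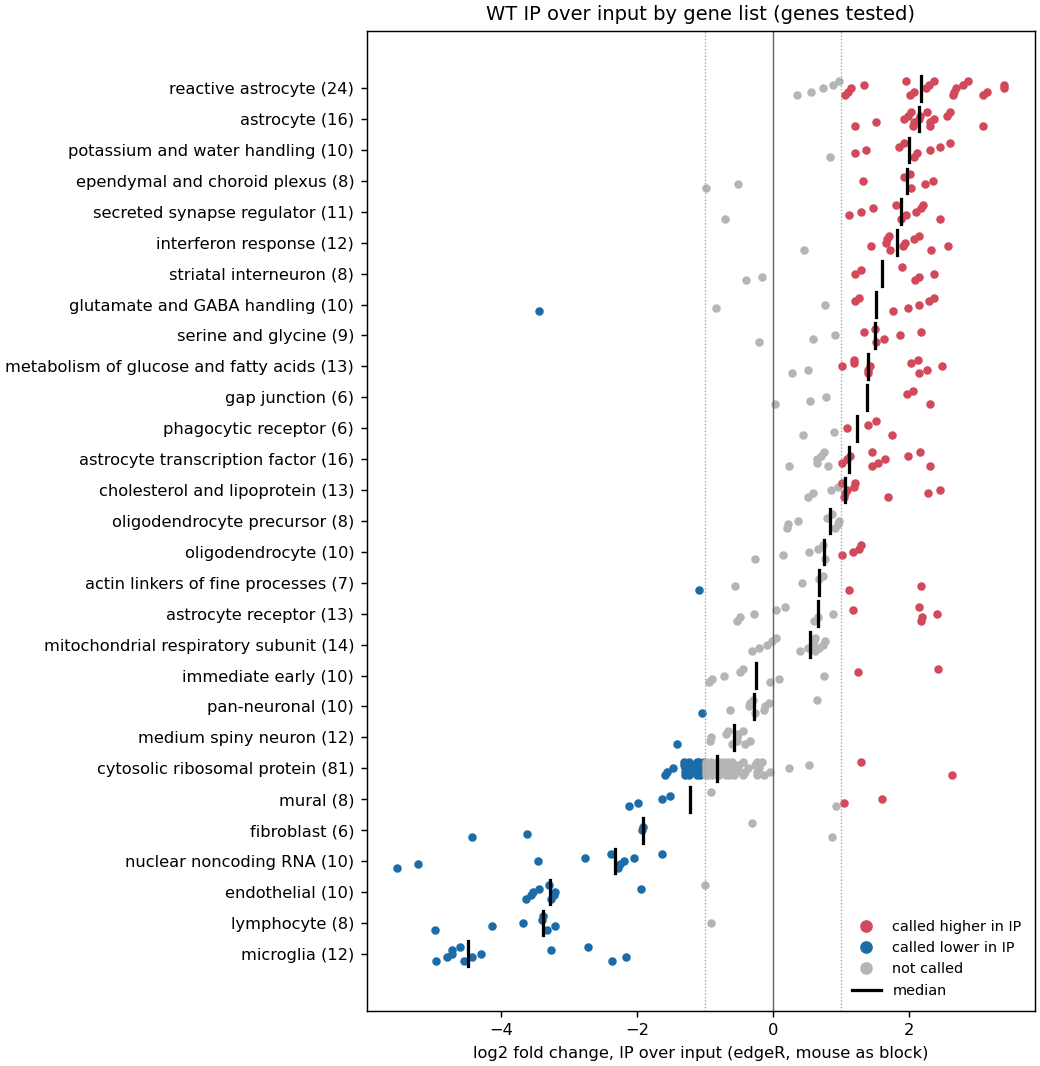
log2(FC) of WT IP over input for each gene of 29 lists, ordered by the list median (black bar), with the number of genes tested in brackets. Red points are genes called higher, blue points genes called lower and grey points genes not called, and the dotted lines mark the limits of -1 and 1. The medians run from -4.49 for microglia to 2.17 for reactive astrocytes.

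Neuronal genes divided by type. Genes of medium spiny neurons, the main striatal neurons, were below their input in all 4 mice for each of the 12 tested, yet only *Gng7*, a G protein subunit gene, passed the limit on the fold change (log2(FC) -1.42), against 12.3% of all genes tested. Under scaling to total counts, *Adora2a* (-1.10) and *Tac1* (-1.08) passed it too, so that 3 of 12 were lower. The median was -0.57. All 12 had an adjusted p under 0.05 in the edgeR test, as had 11341 of all 15587 genes tested. The dopamine receptor gene *Drd1* (listed as *Drd1a*) had 451.3, 260.4, 298.4 and 275.7 CPM in the inputs and 271.3, 199.0, 229.7 and 178.1 CPM in the IPs (-0.53). *Drd2* had 111.3, 58.4, 72.2 and 71.2 CPM in the inputs and 58.8, 37.0, 50.5 and 44.9 CPM in the IPs (-0.69). The highest IPs overlapped the lowest inputs for both genes. Of 10 pan-neuronal genes, 1 was lower, *Rbfox3* (-1.05, but -0.99 without mouse 4), and the median was -0.28. The mice differed, with list medians of 0.18, -0.52, -0.41 and -0.40 for mice 1 to 4. The tubulin gene *Tubb3* (0.64) was above its input in all 4 mice but was not called.

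Striatal interneuron genes were, in contrast, mostly higher in the IP, with a median of 1.60. Of 8 tested, 6 were called higher, against 11.0% of all genes tested. *Chat*, the acetylcholine synthesis gene of cholinergic interneurons, had 28.2, 15.3, 17.7 and 18.7 CPM in the inputs and 116.7, 85.5, 101.2 and 101.8 CPM in the IPs. The groups were apart, with a log2(FC) of 2.37 (SE 0.09, edgeR adjusted p = 1.2e-07). The other cholinergic genes behaved alike, with the choline transporter gene *Slc5a7* at 2.09 and the vesicular acetylcholine transporter gene *Slc18a3*, whose span lies inside that of *Chat*, at 2.15.

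Genes of the somatostatin interneurons also rose. The nitric oxide synthase gene *Nos1* had 59.7, 45.2, 53.4 and 57.3 CPM in the inputs and 207.6, 182.2, 213.5 and 200.6 CPM in the IPs (1.90). *Sst*, the somatostatin gene, had 52.4, 62.7, 67.7 and 71.3 CPM in the inputs and 151.2, 154.6, 167.8 and 148.2 CPM in the IPs (1.30), and *Npy*, the neuropeptide Y gene, was at 1.20. IP and input were apart for these 3 genes, as for 61.2% of all genes tested. *Pvalb* (-0.40) and *Kcnc1* (-0.16), of fast-spiking interneurons, were not called, and their IP and input libraries overlapped.

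Genes of excitatory cortical neurons set mouse 1 apart. *Slc17a7*, the vesicular glutamate transporter gene of cortical projection neurons, had 55.4 CPM in the input of mouse 1 and 528.2, 406.4 and 458.6 CPM in the inputs of mice 2, 3 and 4. The IPs had 11.6, 171.5, 92.0 and 132.0 CPM, each below its own input. The transcription factor gene *Tbr1* had 8.74, 72.1, 58.6 and 59.4 CPM in the inputs and 2.17, 27.2, 17.5 and 19.3 CPM in the IPs.

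In the same input of mouse 1, *Drd1a*, *Drd2* and the enkephalin gene *Penk* were at their highest, with *Penk* at 1415.5 CPM against 671.0 to 884.2 CPM. IP over input was -1.94 for *Slc17a7*, -1.65 for *Tbr1*, -2.14 for *Neurod2* and -2.38 for the zinc transporter gene *Slc30a3* on the log2 scale, and each was called lower. *Slc17a7* was chosen after its values were seen. Without the mouse as a block, the calls of *Slc17a7* (edgeR adjusted p = 0.060) and *Tbr1* (0.070) were lost. How the tissue was cut out in each mouse is not given in the labels, and its part in these values was not tested.

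**Figure D4:**
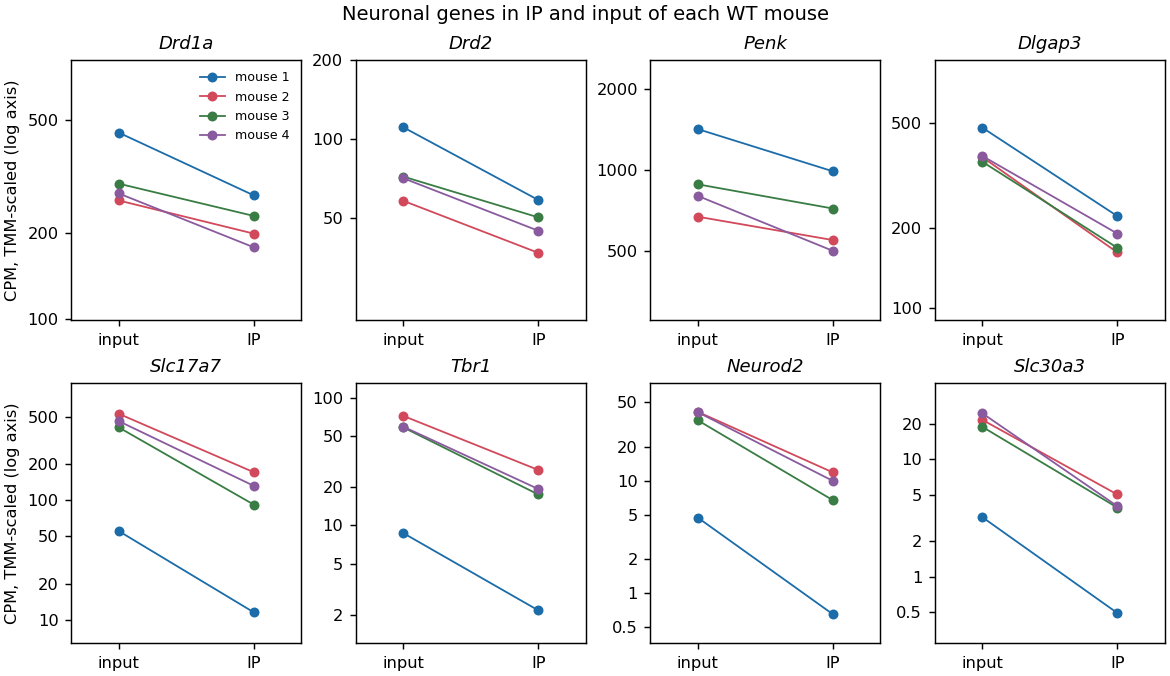
CPM (log axis) of 8 neuronal genes in the input and the IP of each WT mouse, joined by mouse. The upper genes, of medium spiny neurons and *Dlgap3*, were highest in mouse 1, the lower genes, of excitatory cortical neurons, were lowest in mouse 1, and every line falls from input to IP.

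*Dlgap3*, whose product is the scaffold protein SAPAP3, had 481.2, 372.3, 357.5 and 375.9 CPM in the inputs and 222.4, 162.0, 168.7 and 191.0 CPM in the IPs. All IPs were below all inputs, with a log2(FC) of -1.09 (SE 0.06, edgeR adjusted p = 7.2e-07). Scaled to total counts, *Dlgap3* was at 153.5 to 211.9 CPM in WT IPs and 49.8 to 87.2 CPM in KO IPs, so the 2 genotypes were apart, as their labels say.

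Among other glia, oligodendrocyte genes were moderately higher in the IP. Of 10 tested, 4 were called higher (median 0.75), against 11.0% of all genes tested. They were the myelin genes *Cldn11* (1.30), *Mag* (1.26), *Cnp* (1.18) and *Ermn* (1.02). *Ermn* was below the limit under scaling to total counts (0.85), under an FPKM filter (0.94), without mouse 2 (0.94) and without mouse 4 (0.95). *Mag* had 297.2, 293.7, 256.9 and 251.7 CPM in the inputs and 662.7, 674.9, 473.1 and 883.7 CPM in the IPs, with no overlap. *Mbp* (0.14) and *Mobp* (-0.26), which encode myelin proteins, were not called. None of the 8 genes of oligodendrocyte precursors was called (median 0.83), but 3 of 8 were without mouse 1.

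Genes of ependyma and choroid plexus were higher in 6 of 8 cases (median 1.97), against 11.0% of all genes tested. *Foxj1*, the regulator of motile cilia, had 20.5, 15.6, 13.4 and 16.1 CPM in the inputs and 74.7, 76.3, 76.9 and 105.1 CPM in the IPs (2.35), and no IP overlapped an input. The cilium genes *Ccdc153* (2.01) and *Tmem212* (2.23) rose too. Of the choroid plexus genes, the folate receptor gene *Folr1* rose from a low 0.320 to 1.21 CPM (1.92), while *Ttr* (-0.98) and *Kl* (-0.52) were not called. *Ttr* was called lower without mouse 2 (-1.36), without mouse 3 (-1.37) and under scaling to total counts (-1.15).

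Microglial genes were depleted. All 12 were lower in the IP, against 12.3% of all genes tested, with a median log2(FC) of -4.49. *Cx3cr1*, the fractalkine receptor gene, fell from 102.8 to 4.74 CPM on average (-4.43), *Tmem119* from 41.8 to 2.12 CPM (-4.30) and the cathepsin gene *Ctss* from 336.6 to 11.1 CPM (-4.96). The shallowest was *P2ry12* (-2.17), a purine receptor gene. The summed level was 866.0 to 1836.2 CPM in the inputs and 76.6 to 118.7 CPM in the IPs. The list was lowest in the input of mouse 3, as the reactive astrocyte and interferon lists were.

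Of 10 endothelial genes, 9 were lower (median -3.28), for example the claudin gene *Cldn5* (-3.56), and of 8 lymphocyte genes, 7 were lower (median -3.39). The share lower among all genes tested was 12.3%. For *Ms4a1*, a B cell gene with 3 or fewer counts in each IP, the level was at least 12.4-fold lower in the IP. Fibroblast genes were lower in 4 of 6 cases (median -1.92), led by the decorin gene *Dcn* (-4.43), and 1 was higher without mouse 1. Mural cell genes went both ways, with 4 of 8 lower, such as *Vtn* (-1.99), and 2 higher, *Notch3* (1.60) and *Acta2* (1.04, but 0.95 without mouse 3 and 0.80 without mouse 4).

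The 10 genes with the deepest fall at 5 CPM or more in the input were *Rmrp*, *Ly6c2*, *Ctss*, *C1qc*, *Tyrobp*, *C1qb*, *Snora74a*, *Igj*, *Gpr34* and *C1qa*. Of these, *Ctss*, the 3 C1q genes, *Tyrobp* and *Gpr34* are microglial, *Igj* encodes the joining chain of antibodies, and *Rmrp* and *Snora74a* are small noncoding RNAs. *Igj* differed widely between inputs, at 99.2, 12.1, 45.3 and 162.8 CPM, and was at 4.11, 1.06, 1.20 and 5.59 CPM in the IPs.

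RNAs that stay in the nucleus were lower in the IP. Of 11 on the list, 10 could be tested and all 10 were called lower (median -2.33), against 12.3% of all genes tested. *Malat1* had 10111.6, 6815.5, 7777.6 and 4638.0 CPM in the inputs and 2045.9, 1745.1, 2694.6 and 575.7 CPM in the IPs (-2.20). *Rmrp*, the RNA of RNase MRP, had 1338.9, 1133.7, 650.5 and 645.6 CPM in the inputs and 29.2, 34.0, 19.9 and 6.15 CPM in the IPs (-5.53). Inputs and IPs were apart for both, and mouse 4 had the least of both in the IP. *Xist*, the RNA of the inactive X chromosome, did not pass the filter on low counts. Scaled to total counts, it was at 184.1 CPM in the input and 31.8 CPM in the IP of mouse 4, and at 0.248 CPM or less in the other 6 libraries.

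By class of gene, 258 of 621 long noncoding RNAs (41.5%) and all 29 small nucleolar RNAs were lower, against 1524 of 14685 protein-coding genes (10.4%). Among 81 genes of cytosolic ribosomal proteins, 25 were lower and 2 higher (median -0.83), against 12.3% and 11.0% of all genes tested. The number lower was 16 without mouse 1 and 39 under scaling to total counts. Genes of the mitochondrial respiratory chain were not called in any of 14 cases (median 0.55). Of 10 immediate early genes, *Jun* (1.25) and *Fosl1* (2.42) rose, a share near the 11.0% of all genes tested, and *Fos* (0.75), *Egr1* (-0.90) and *Npas4* (-0.94) were not called. *Egr1* (-1.08) and *Npas4* (-1.11) were called lower under scaling to total counts, and 1 gene of this list was lower without mouse 2 and without mouse 3.

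*Rpl22*, the gene that the RiboTag virus carries, was 1 of the 2 ribosomal protein genes that rose. It had 180.1, 224.5, 115.7 and 138.1 CPM in the inputs and 751.7, 1805.3, 823.1 and 836.3 CPM in the IPs (log2(FC) 2.63, SE 0.14, edgeR adjusted p = 6.8e-07). No IP overlapped an input, and mouse 2 was highest in both fractions. Scaled to total counts, it was at 121.5 to 237.9 CPM in these inputs, 341.5 to 491.3 CPM in the Control inputs, 768.1 to 1126.8 CPM in the hSyn inputs and 66.7 to 74.4 CPM in the bulk libraries of WT mice. Tagged and native *Rpl22* cannot be told apart in the counts. The other was *Rps27l* (1.30).

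The enrichment was then set against that of SAPAP3 KO mice, to see whether the ratio of IP to input depended on genotype. None of 16059 genes passed (0%) in edgeR's test of the difference, and 561 (3.49%) had an unadjusted p under 0.05. limma-voom called none and the DESeq2 Wald test called 1, *Dcdc2b*, which had a difference of -2.50 in edgeR (adjusted p = 0.75) and was chosen after its values were seen. Over all genes the median difference was 0.00. The WT minus KO difference on the log2 scale was -0.28 for *Gfap* (SE 0.16), 0.28 for *Lcn2* (SE 0.43), -0.04 for *Timp1* (SE 0.29) and -0.02 for *Slc1a2* (SE 0.11). *Rpl22* differed by -0.11 (SE 0.22). The median of the microglia list differed by -0.75, as its genes were at -3.61 in KO mice, and none of the 12 passed. KO IPs 1 and 4 stood apart from KO IPs 2 and 3. In CPM of total counts, *Ctss* was at 30.8, 7.65, 7.70 and 27.8 in the KO IPs, and *C1qa* at 17.9, 4.28, 4.55 and 15.7. The noncoding RNA *Rmrp* moved with them, at 66.6, 9.46, 11.7 and 75.4, and its part was not tested.

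IP over input was next compared with that of the Control cohort. This and the hSyn comparison use the same 8 WT libraries and so are not independent of each other. Of 16032 genes, 582 were called (3.63%), 224 with a higher IP over input in WT (1.40%) and 358 with a lower one (2.23%), and the median difference was 0.02. The strain and the cohort differ together and the age may differ, and their parts cannot be told apart. Sex, which the labels do not give, may differ as well. Scaled to total counts, *Xist* was at 0.0405 CPM or less in every Control library. In the WT inputs it was at 184.1 CPM in mouse 4 and at 0.218 CPM or less in the others. The astrocyte list had a median of 2.94 in Control mice, and 4 of its 16 genes had a lower IP over input in WT, namely *Slc1a2* (difference -1.63, SE 0.09), *Atp1b2* (-1.46), *Kcnj10* (-1.26) and *Sox9* (-1.22).

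For *Slc1a2* the inputs differed more than the IPs did. Scaled to total counts, the inputs were at 3911.0 to 5393.6 CPM in WT and 1962.9 to 2156.4 CPM in Control mice, without overlap. The IPs were at 13830.6 to 21042.4 CPM in WT and 20775.4 to 23171.2 CPM in Control mice, and these overlapped. *Gfap* (-0.13, SE 0.15) and *Timp1* (0.22, SE 0.36) showed no difference that passed.

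*Lcn2* was called higher in WT, by 1.56 (SE 0.33), with IPs at 4.09 to 21.7 CPM of total counts in WT and 1.65 to 7.92 CPM in Control mice, which overlapped. That call was lost without the mouse as a block (1.39, edgeR adjusted p = 0.32). *Cp*, the ceruloplasmin gene, was the other of 2 reactive astrocyte genes among 24 that were higher in WT (1.00, but 0.87 without WT mouse 2, 0.89 without WT mouse 4, 0.90 and 0.87 without Control mice 1 and 2, and an adjusted p of 0.087 in edgeR without the block). Of 12 microglial genes, 7 had a shallower fall in WT, such as *Tmem119* (difference 1.68), against 1.40% of all genes tested called higher. The list median was -5.61 in Control mice. The myelin genes *Mag* (1.14) and *Cldn11* (1.09) were higher in WT, but were at 0.95 and 0.93 without WT mouse 4 and at 0.99 and 0.91 without Control mouse 2. *Nos1* was lower in WT (-1.37), and *Chat* was not called (-0.05, SE 0.10).

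The 5 genes that differed most upwards were *Scarna10* (3.00), the osteopontin gene *Spp1* (2.78), *Rpph1* (2.00), *Clec7a* (1.88) and *Rmrp* (1.86). *Spp1* had an IP over input of 0.45 in WT and -2.34 in Control mice, with 8.77 to 33.6 CPM of total counts in the WT IPs and 0.765 to 3.45 CPM in the Control IPs. *Clec7a*, a receptor gene of activated microglia, lost its call without the mouse as a block (edgeR adjusted p = 0.14).

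The 5 that differed most downwards were *Gm11549* (-2.97), *Slc30a3* (-2.87), *Tbr1* (-2.85), *Bdnf* (-2.79) and *Neurod2* (-2.77), of which *Slc30a3*, *Tbr1* and *Neurod2* are known from excitatory cortical neurons. For *Slc17a7* (-2.59) the Control inputs had 58.6 to 87.6 CPM of total counts. WT mouse 1 was among them at 59.3 CPM, and WT mice 2, 3 and 4 were above them at 426.9 to 559.9 CPM. The call was kept without each mouse for *Slc17a7*, and was lost without the mouse as a block (edgeR adjusted p = 0.053).

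Against the hSyn cohort, more genes differed than against the other cohorts. This fit had no block, so it did not use the pairing of WT IP and input by mouse. Of 16409 genes, 3933 were called (24.0%), 2806 with a higher IP over input in WT (17.1%) and 1127 with a lower one (6.87%), and the median difference was -0.02. The strain and the cohort differ here too, and age and sex may differ, so their parts cannot be told apart. *Xist* was at 188.8 to 280.7 CPM of total counts in the hSyn inputs, against 0.218 CPM or less in the WT inputs other than mouse 4. All 16 astrocyte genes were higher in WT, with a median difference of 2.80, as they were at a median of -0.63 in the hSyn cohort. All 10 oligodendrocyte genes (median difference 2.48) and all 8 precursor genes (2.92) were higher too, and all 12 genes of medium spiny neurons were lower (-1.43).

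The 4 leading markers each differed, *Gfap* by 2.42 (SE 0.35), *Slc1a2* by 2.73 (SE 0.19), *Timp1* by 2.26 (SE 0.73) and *Lcn2* by 2.67 (SE 1.00). Scaled to total counts, *Slc1a2* was at 1916.0 to 2387.4 CPM in the hSyn IPs, below their inputs at 3899.0 to 4403.4 CPM, whereas in WT every IP was above every input. *Lcn2* was at 0.645 CPM or less in the hSyn IPs. Its call was lost without WT mouse 4 (2.49, edgeR adjusted p = 0.070), without hSyn numbers 1, 2 and 4 (adjusted p = 0.063, 0.088 and 0.061) and with limma-voom (adjusted p = 0.11). The library numbers in the hSyn titles pair IP and input by their deviations, although the animal ids differ, and with those pairs and the WT mice as blocks *Lcn2* differed by 2.72 (edgeR adjusted p = 6.6e-06). That pairing was read from these same data, so this p-value is no independent support for the call.

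The interneuron list had a median of 0.80 in the hSyn cohort, and 3 of its 8 genes were higher in WT, against 17.1% of all genes tested. IP over input was 2.36 in WT and 1.32 in the hSyn cohort for *Chat* (difference 1.05), 2.16 and 1.10 for *Slc18a3* (1.06), and 1.92 and 0.66 for *Nos1* (1.26). The call was lost for *Chat* without WT mouse 3 (1.00) and for *Slc18a3* without WT mouse 4 (0.99). *Pvalb* was lower in WT (-1.33). Microglial genes were depleted in both (median difference 0.14), and 2 of 12 were called higher in WT, near the 17.1% of all genes tested. The 5 largest differences upwards were *Ptgds* (3.87), which encodes a prostaglandin synthase, *Slc25a18* (3.67), *Olfr287* (3.62), *Gjb2* (3.60) and the angiotensinogen gene *Agt* (3.58). The 5 largest downwards were *Krt12* (-2.83), *Dkkl1* (-2.82), *Tmem215* (-2.82), *Nrn1* (-2.55) and *Gm11549* (-2.48). With limma-voom, the calls of *Tmem215* (-2.33, adjusted p = 0.083) and *Gm11549* (-2.44, adjusted p = 0.050) were lost.

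**Figure D5:**
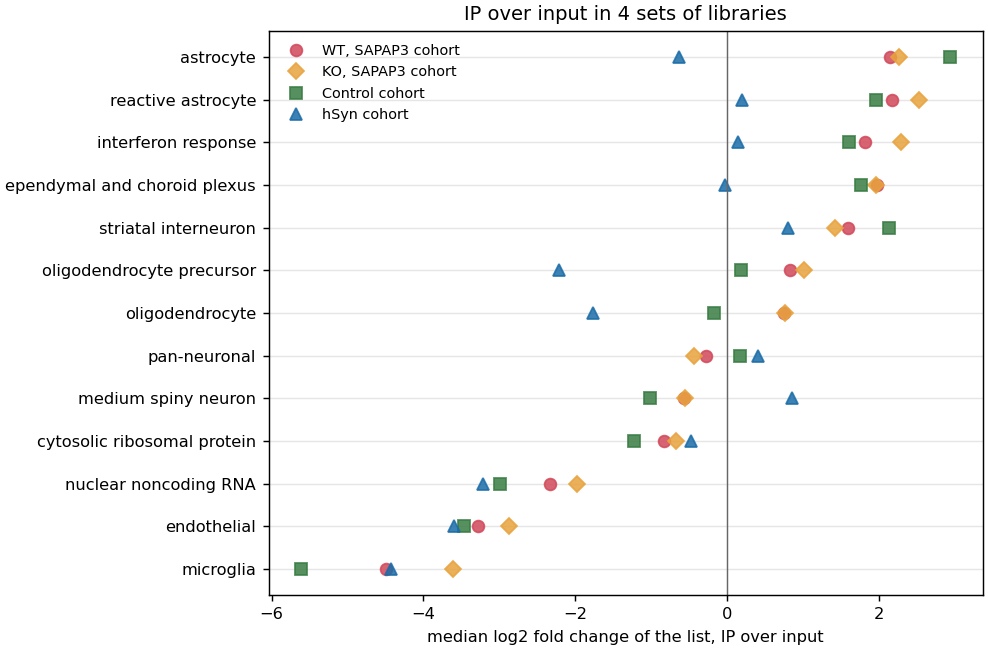
Median log2(FC) of IP over input for 13 gene lists in WT and KO mice of the SAPAP3 cohort, the Control cohort and the hSyn cohort. WT and KO lie farthest apart for the microglia list (-4.49 and -3.61), the astrocyte list is at 2.15 in WT, 2.94 in Control and -0.63 in the hSyn cohort, and the medium spiny neuron list is at -0.57, -1.02 and 0.86.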

How the data were processed

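Per the submitters' processing notes, STAR, HTSeq and the mm10 build were used by the authors, who deposited raw counts for 24060 gene symbols and 40 libraries. The annotation, the strand setting and the treatment of reads with several placements are not given in the sources used here, and kit and sequencer differ between the study's methods and the sample labels. No deposited column went unassigned to a sample. The members and the gene lists were chosen with earlier results of these data known.

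Genes that passed filterByExpr were fitted in R 4.3.3 with edgeR 4.0.16 (TMM, glmQLFit, glmQLFTest) and Benjamini-Hochberg adjustment, with the mouse as a block. In the 3 differences between cohorts the interaction of IP and cohort was tested, without a fold change limit against KO mice. Against the hSyn cohort no block was used, so the pairing of the WT libraries by mouse was left out there too. The SE is the size of the log2(FC) divided by the square root of the F statistic. The block rests on the animal id, and deviations from the group means correlated between the IP and input of a mouse (r = 0.533 to 0.703 over 12210 genes, on average -0.209 between mice). The hSyn libraries of the same title number correlated likewise (r = 0.473 to 0.788 over 11875 genes, on average -0.196 between numbers), so blocked values are also given. Because deviations from a group mean cancel out, the negative values between mice and between numbers follow from the positive ones and add no support. Replicate libraries differed by more than sampling noise. With the mouse as a block, p-values rest on the spread of IP over input between these mice. Without a block, they rest on the spread between the libraries of a group.

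Alternatives were limma-voom (limma 3.58.1), the DESeq2 1.42.0 Wald test, 2 other scalings, 2 other filters, the other choice of block and leaving out each mouse. Named genes are the members of the lists, *Rpl22*, *Dlgap3*, the 10 called genes with the largest and the 10 with the lowest log2(FC) of those with a mean of 5 CPM or more in the higher group and 1 direction in 4 mice, and for each difference the 5 most changed either way. Some of these genes are not reported here. The fits of WT IP against input and of the Control difference were tested on simulated data, and the genotype and hSyn fits were not. FPKM used exon lengths of the RefSeq annotation of GRCm38.p6, matched for 23879 symbols (99.3%). A lower bound of a fold change is at 3 counts per library and covers counting error only. Figures were drawn with matplotlib 3.10.9.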

Additional observations from a re-analysis of the deposited data

Results flagged for a closer look

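Of 45 genes given library by library or ranked, 7 had a WT library far from the other 3 of its group (90 groups were examined, and chance flags about 1 in 20). In the inputs, mouse 3 was low for *Gfap* (230.3 CPM) and *Vim* (31.8 CPM), mouse 2 was high for *Lcn2* (2.71 CPM) and mouse 1 was high for *Dlgap3* (481.2 CPM). In the IPs, mouse 2 was high for *Rpl22* (1805.3 CPM) and *Ptx3* (12.4 CPM), and mouse 4 was high for *Foxj1* (105.1 CPM).

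IP over input differed from the Control cohort by the interaction test for 224 genes upwards and 358 downwards. On the log2 scale, WT minus Control was 1.56 for *Lcn2*, 1.00 for *Cp*, 1.14 for *Mag*, 1.09 for *Cldn11*, 1.68 for *Tmem119*, 3.00 for *Scarna10*, 2.78 for *Spp1*, 2.00 for *Rpph1*, 1.88 for *Clec7a* and 1.86 for *Rmrp*. It was -1.63 for *Slc1a2*, -1.26 for *Kcnj10*, -1.46 for *Atp1b2*, -1.22 for *Sox9*, -1.37 for *Nos1*, -2.59 for *Slc17a7*, -2.97 for *Gm11549*, -2.87 for *Slc30a3*, -2.85 for *Tbr1*, -2.79 for *Bdnf* and -2.77 for *Neurod2*.

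Against the hSyn cohort, 2806 genes differed upwards and 1127 downwards. WT minus hSyn was 2.42 for *Gfap*, 2.67 for *Lcn2*, 2.26 for *Timp1*, 2.73 for *Slc1a2*, 1.05 for *Chat*, 1.06 for *Slc18a3*, 1.26 for *Nos1*, 3.87 for *Ptgds*, 3.67 for *Slc25a18*, 3.62 for *Olfr287*, 3.60 for *Gjb2* and 3.58 for *Agt*. It was -1.33 for *Pvalb*, -2.83 for *Krt12*, -2.82 for *Dkkl1* and for *Tmem215*, -2.55 for *Nrn1* and -2.48 for *Gm11549*. Causes of these differences were not tested.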

How the results depend on the processing

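Calls of WT IP against input numbered 3627 and stayed between 3590 and 4314 with limma-voom, the DESeq2 Wald test, both other scalings, no filter and no replicate block (3590 calls without the pairing, 3557 of them shared). Leaving out a mouse gave 3552 to 3773. With a filter of FPKM above 5, 8526 genes were tested and 1268 called, 795 of them higher. The genotype difference had 0 calls, also without each mouse (0 to 0) and without the block, and 1 with the DESeq2 Wald test (*Dcdc2b*, named after its value was seen). The Control difference (582 calls) had 132 under the FPKM filter, 444 without the block and 460 to 733 without a mouse, and the hSyn difference (3933) had 1712 under the FPKM filter, 4081 with the replicate block (3885 of them shared) and 3759 to 4120 without a mouse. The FPKM filter tests fewer genes. No named gene reversed, and the sign of all 29 list medians held under both other scalings. The list counts without a mouse, the named differences under each setting and the list counts under total counts were chosen after seeing the data. Of the named genes, 340 kept their side of the limits in WT IP against input under scaling to total counts, 23 gained a call, mostly ribosomal protein genes, and 16 at 1.01 to 1.15 lost one. Low counts limit *Lcn2* and *Timp1* in the inputs, with 11 to 79 reads a library.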
